A study of Mus musculus with 8 samples.

Results

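The secreted WNT antagonists are proteins released from cells and known as inhibitors of WNT signalling. Methylation of 10 genes of this kind was examined: Sfrp1, Sfrp2, Sfrp4, Sfrp5 and Frzb (the secreted frizzled-related proteins), Wif1, and Dkk1, Dkk2, Dkk3 and Dkk4 (the Dickkopf family). The members were taken by name, and every CpG position inside a member or within 2000 bp of it was collected. Each gene was divided into 5 units, namely a lower and a higher end (1000 bp outside to 500 bp inside the gene), the interior between them, and the outer flanks. A unit was kept with at least 20 reads in every library. All 10 genes had a read position, 7 had a kept unit, and 11 of their 50 units were kept: 5 ends, 5 interiors and 1 flank. The table as a whole gave 34580 kept units in 22484 of 49554 genes.

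The cells were I1DN leukaemic progenitors (cKit positive, Cd11b negative; the labels do not spell out I1DN) from transplanted mice. Mice in the 4 groups received Vehicle, AG120, AZA, or AG120 with AZA, here called the combination. AG120 is ivosidenib, which blocks the mutant form of the enzyme IDH1, and AZA is azacitidine, a nucleoside drug that depletes DNA methyltransferases. Treatment lasted 5 days in all groups, with 2 libraries in each. All groups, Vehicle included, carried I1DN cells. Not given in the sources used here were strain, age, doses and whether the libraries of a group came from different mice, so p-values measure only the spread between these libraries. Methylation was read by reduced representation bisulfite sequencing (RRBS), which sequences CpG-rich restriction fragments after bisulfite conversion. The level of a unit is the percentage of its reads that called the cytosine methylated, with strands listed separately.

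WNT proteins bind Frizzled receptors and the co-receptors LRP5 and LRP6, which leads to accumulation of beta-catenin and transcription through TCF and LEF factors. Secreted frizzled-related proteins and WIF1 bind WNT proteins outside the cell, whereas DKK1, DKK2 and DKK4 bind LRP5 and LRP6. In acute myeloid leukaemia and other cancers, the promoters of several of these genes are known to carry methylation that is scarce in normal cells.

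Start-site sequence was matched for 6 of the 10 genes in RefSeq promoters of GRCm38.p6, whose coordinates are those of the mm10 build of the table. Each window holds 300 bases, 250 before the start and 50 after it. The 4 windows read in all 8 libraries are printed 5′ to 3′ on the gene's strand, to show which CpGs near each start were read. Levels within each window (for Wif1, within the stretch that contains it) are given with the gene, beside those of the larger unit. Capitals mark the CpGs read in at least 1 library, and CpGs that no library read are in lower case.
Wif1: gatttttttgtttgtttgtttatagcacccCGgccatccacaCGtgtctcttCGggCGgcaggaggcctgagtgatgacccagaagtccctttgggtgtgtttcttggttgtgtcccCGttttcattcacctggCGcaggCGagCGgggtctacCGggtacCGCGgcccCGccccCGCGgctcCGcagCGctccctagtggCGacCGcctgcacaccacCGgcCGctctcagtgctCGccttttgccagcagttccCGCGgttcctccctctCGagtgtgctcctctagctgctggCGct
Sfrp2: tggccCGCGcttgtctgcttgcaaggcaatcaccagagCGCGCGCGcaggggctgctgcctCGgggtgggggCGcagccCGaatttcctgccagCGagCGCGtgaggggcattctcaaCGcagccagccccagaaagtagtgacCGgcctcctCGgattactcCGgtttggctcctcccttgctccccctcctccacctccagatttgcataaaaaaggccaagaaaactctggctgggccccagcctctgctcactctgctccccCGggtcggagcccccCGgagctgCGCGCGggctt
Sfrp5: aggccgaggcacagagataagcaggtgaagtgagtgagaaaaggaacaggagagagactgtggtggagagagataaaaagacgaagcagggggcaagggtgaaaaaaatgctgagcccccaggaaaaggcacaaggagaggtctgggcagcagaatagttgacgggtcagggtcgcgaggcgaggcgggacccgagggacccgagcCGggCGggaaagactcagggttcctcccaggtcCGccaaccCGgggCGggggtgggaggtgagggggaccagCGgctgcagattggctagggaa
Frzb: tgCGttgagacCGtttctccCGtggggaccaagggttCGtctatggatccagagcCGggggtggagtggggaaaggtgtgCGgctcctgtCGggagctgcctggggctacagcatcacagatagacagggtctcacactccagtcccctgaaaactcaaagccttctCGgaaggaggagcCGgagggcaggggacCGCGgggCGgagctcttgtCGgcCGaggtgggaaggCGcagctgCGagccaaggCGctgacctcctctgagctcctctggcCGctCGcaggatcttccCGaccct
The Wif1 window is chr10:121033754-121034053 on the plus strand, and all of its 25 CpGs were read. The Sfrp2 window, chr3:83766071-83766370 on the plus strand, has 22 CpGs, of which 21 were read. The Sfrp5 window lies at chr19:42202203-42202502 on the minus strand and has 6 of its 15 CpGs read, all in the part nearest the start. The Frzb window is at chr2:80447347-80447646 on the minus strand, with all 20 CpGs read. CCGG, the cut site of MspI, the enzyme commonly used for RRBS, is a palindrome and so reads alike on both strands. It occurs 3 times in the Wif1 window, 4 times in that of Sfrp2 and 2 times each in those of Sfrp5 and Frzb. At least 1 CCGG was present in 52.8% of the 32851 windows in the RefSeq table. The Dkk1 window has 9 CpGs, 7 of them read and in 1 library only, and the Dkk2 window has 11 CpGs, none of them read.

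Total CpG calls ranged from 90373925 to 130796962 per library. The 4 libraries with AG120 had fewer calls (at most 110137175) and fewer covered positions than the 4 without it (at least 119441709 calls). Their methylated share of all calls was higher, at 41.5 to 50.5% against 32.6 to 39.2%. The part of this split in the member values was not tested. Gene ends of progenitor genes were mostly unmethylated, as were gene ends in general (median 2.63% over 15364 kept ends). Kit, whose product was used to select the cells, had a median over the libraries of 2.83% (0.137 to 19.4%). Among markers of other cell types, the medians were 0.0220% at Cd4 (lymphoid) and 0.798% at Itga2b (erythroid and megakaryocytic). They were 34.4% at Cxcl12 and 9.99% at Pdgfrb (both stromal and endothelial). The myeloid genes differed, with 0.806% at Cebpa and 36.2% at Cebpe (0 to 99.2% over the libraries). Low levels were thus not particular to progenitor genes. Itgam, which encodes Cd11b, had no kept end.

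Libraries often read different CpGs of the same unit. Of the 1329 member positions, 29 (2.18%) were read in all 8 libraries and 375 (28.2%) in 1 library only, against 3.45% read in all 8 over the whole table. Among 2346 values of a member position in a library with at least 10 reads, 84.7% were exactly 0 or 100% methylated. In 94.4% of these values, another position within 100 bp had the same depth to within 2%. A level of a unit therefore rests on fewer fragments than its read number, and limits given for a level of 0 (3 counts of the reads) cover counting error only.

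**Figure D1:**
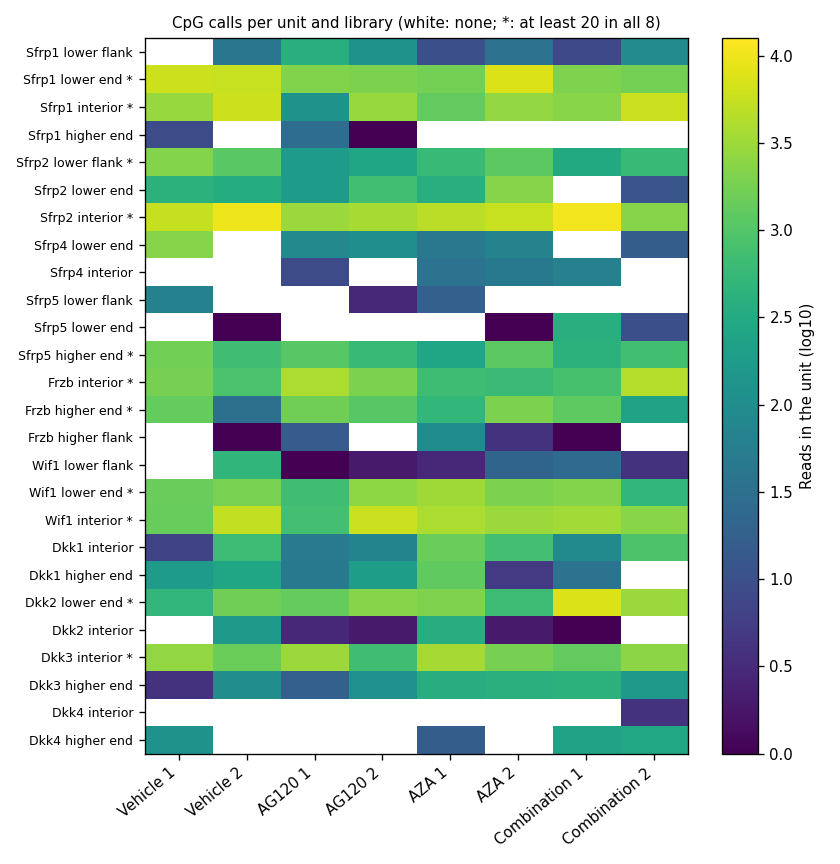
CpG calls (log10 scale, colour) in each unit of the 10 genes that any library read, by library. Units with a star had at least 20 reads in all 8 libraries; no unit of Sfrp4, Dkk1 or Dkk4 has one.

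No member unit was called in any of the 8 tests between groups (edgeR quasi-likelihood F-test, Benjamini-Hochberg adjustment over all 34580 units, threshold 0.05). The smallest adjusted p of a member was 0.875. The background was the same, with 0 units called (0% of those tested) in each test and 877 to 1912 units at an unadjusted p under 0.05. At an unadjusted p under 0.05, 1 of 11 member units passed for AG120 against Vehicle (background 3.66%), 1 for AZA against Vehicle (background 2.54%), 0 for the combination against Vehicle (background 5.53%), 2 against AZA (background 5.18%) and 0 against AG120 (background 4.47%). It was 1 for the interaction (background 3.21%), 1 for AG120 on average (background 5.33%) and 0 for AZA on average (background 3.69%). With other tools, limma called 0 of the 34580 units in every test, the edgeR likelihood ratio test 212 to 709, and DESeq2 451 to 1717. The last 2 called 2 and 5 of the 88 member results, all in Wif1 and Frzb and given with those genes. In 7 of the 11 units the largest gap between the libraries of a group was at least as large as the range of the 4 group means. This was not counted over all kept units, so it is not a trait shown for the members. All comparisons with Vehicle share the same 2 Vehicle libraries.

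Groups that did not overlap were counted among the members and, as background, among all kept units. AG120 and Vehicle did not overlap in 5 of 11 member units (background 33.8%). For AZA against Vehicle the count was 2 of 11 (background 32.8%). For the combination it was 3 of 11 against Vehicle (background 37.1%), 5 of 11 against AZA (background 34.3%) and 4 of 11 against AG120 (background 30.3%). Between the 4 libraries with AG120 and the 4 without, 1 of 11 member units did not overlap (background 4.58%). Between the 4 with AZA and the 4 without, 0 of 11 did not overlap (background 2.47%).

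**Figure D2:**
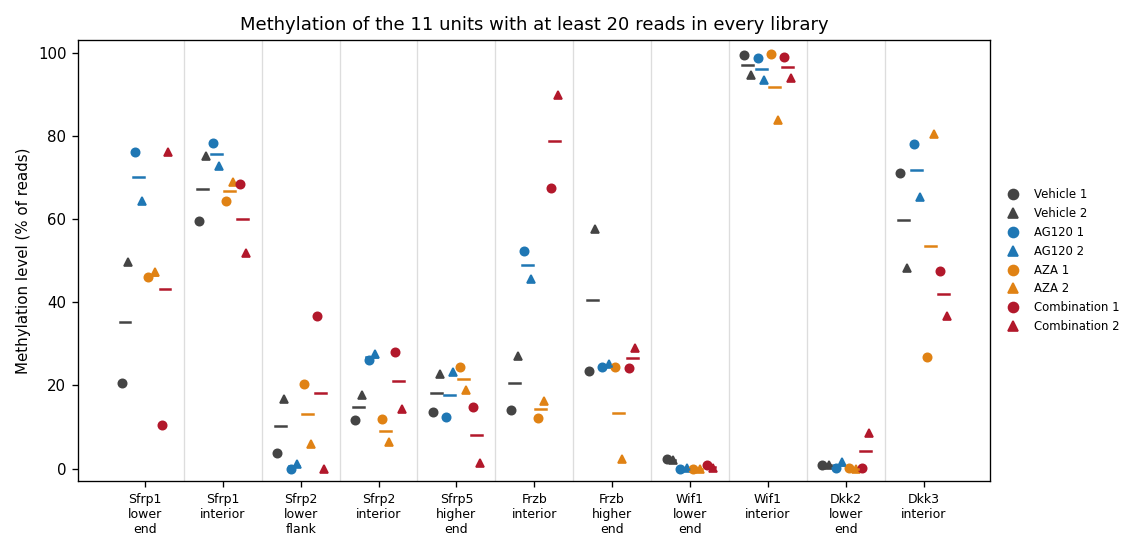
Methylation level (% of reads, linear axis) of the 11 kept units in each library; colours are groups, circles replicate 1, triangles replicate 2 and bars the mean of 2 libraries. The Frzb interior is highest in the combination, and Wif1 lies near 0 in its lower end and over 80% in its interior.

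Sfrp1, which encodes a WNT-binding frizzled-related protein, had the most methylated kept gene end of the members. Its lower end, chr8:23410383-23411882, held 165 read positions. The levels were 20.7 and 49.6% in Vehicle, 76.1 and 64.3% in AG120, 46.1 and 47.2% with AZA, and 10.5 and 76.0% in the combination. Both AG120 libraries lay above both Vehicle libraries, while the lowest and nearly the highest of the 8 values came from the same group, the combination. The means were 35.1 ± 20.4% in Vehicle, 70.2 ± 8.38% in AG120, 46.6 ± 0.728% with AZA and 43.3 ± 46.3% in the combination (SD, n = 2 each). The AG120 minus Vehicle difference of 35.1 points had an adjusted p of 1 in the edgeR fit. With each position counted once in place of each read, that difference was 5.49 points. The mean over the libraries, 48.8%, was above that of 83.7% of the 15364 kept gene ends, whose median was 2.63%. Its range of 65.6 points exceeded that of 93.0% of them.

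None of the 165 positions at the Sfrp1 lower end was read in all 8 libraries. A library read between 37 and 92 of them, and between 12 and 87 with at least 10 reads. In AG120 1 there were 16 such positions. The 12 of these at 100% had 130 reads each and lay between 23411576 and 23411647, so its high level rests on few fragments. In the plot of single Sfrp1 positions, fully methylated and unmethylated CpGs alternate over short distances in most libraries.

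**Figure D3:**
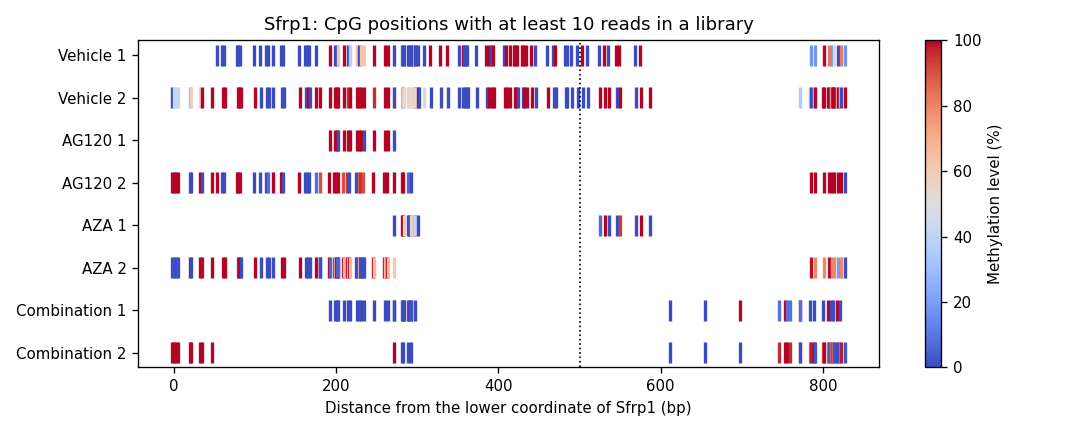
CpG positions of Sfrp1 near its lower coordinate with at least 10 reads in a library; x is the distance from that coordinate in bp, rows are libraries and colour is the level in %. The dotted line marks the border between the lower end and the interior; different rows show different positions, and most ticks are at 0 or 100%.

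The Sfrp1 interior, chr8:23411883-23449132, was more methylated than the end. It stood at 59.5 and 75.2% in Vehicle, 78.4 and 72.8% in AG120, 64.3 and 69.0% with AZA, and 68.4 and 51.8% in the combination. The AG120 1 value rests on 125 reads. AG120 lay above the combination, the other tested pairs overlapped, and the smallest edgeR p was 0.517. The interior held the only 3 member positions with at least 10 reads in all 8 libraries. Position 23419468 was 100% methylated in every library. Position 23419509 was at 0 in every library (0 of 1218 reads, which allows up to 0.246%). Position 23419475, between them, was at 100% in 7 libraries and at 0.976% in combination 2.

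Sfrp2, a second WNT-binding frizzled-related protein, had low to moderate methylation around its start. The unit with the RefSeq start is the interior, chr3:83766250-83773814, with 147 positions, and the stretch chr3:83766338-83767030 near the start supplied 83.3 to 100% of its reads. The levels were 11.8 and 17.8% in Vehicle, 26.1 and 27.5% in AG120, 11.9 and 6.41% with AZA, and 28.0 and 14.2% in the combination. AG120 lay above Vehicle without overlap, and the combination lay above AZA. The means were 14.8 ± 4.24% in Vehicle, 26.8 ± 1.0% in AG120, 9.15 ± 3.88% with AZA and 21.1 ± 9.73% in the combination (SD, n = 2 each). The AG120 minus Vehicle difference was 12.0 points (edgeR adjusted p = 1), and it was 2.22 points with each position counted once. Within the printed 300-base window the levels were 5.44 and 0.556% in Vehicle and 22.6 and 7.18% in AG120. With AZA they were 8.09 and 10.8%, and in the combination 0% (of 31 reads) and 0.120% (of 831 reads). In the window the combination lay below every other library, whereas over the whole unit it lay above AZA. AG120 and AZA both lay above Vehicle there. The Sfrp2 window was described after its values were seen and has no test of its own.

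The Sfrp2 lower flank, chr3:83763750-83764749, varied more. It was at 3.79 and 16.8% in Vehicle, at 0 (upper limit 1.70%) and 1.11% in AG120, at 20.3 and 5.90% with AZA, and at 36.6 and 0% (upper limit 0.496%) in the combination. The combination libraries were the highest and one of the lowest of the 8. AG120 minus Vehicle was −9.77 points, with an adjusted p of 1 in the edgeR fit. Between the flank and the interior, the lower end was left out, with no read in combination 1 and 12 reads in combination 2. The 7 libraries that read it were at 0 to 8.74%.

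Sfrp5, another frizzled-related protein, was read almost only at its start, in the higher end at chr19:42201753-42203252. The levels were 13.7 and 22.7% in Vehicle, 12.4 and 23.1% in AG120, 24.4 and 18.9% with AZA, and 14.8 and 1.26% in the combination. In this unit the combination lay below AZA and overlapped with the other groups. Its mean was 8.02 ± 9.56% against 21.7 ± 3.90% in AZA (SD, n = 2 each; edgeR adjusted p = 1). Of 36 positions there, 11 were read in all 8 libraries, more than in any other member unit. Within the printed Sfrp5 window alone, the levels were 17.8 and 44.9% in Vehicle, 3.37 and 7.57% in AG120, 33.3% (of 6 reads) and 29.6% with AZA, and 21.8 and 0% (of 68 reads) in the combination. There AG120 lay below Vehicle without overlap, whereas over the whole unit these groups overlapped. The window was described after its values were seen and has no test of its own.

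Frzb, which encodes the frizzled-related protein first found in cartilage, gave the largest differences between groups of all members. The interior, chr2:80412470-80446896, was at 14.1 and 27.0% in Vehicle, 52.3 and 45.5% in AG120, 12.2 and 16.3% with AZA, and 67.5 and 89.8% in the combination. The 4 libraries with AG120 were all above the 4 without. The means were 20.6 ± 9.12% in Vehicle, 48.9 ± 4.80% in AG120, 14.3 ± 2.92% with AZA and 78.7 ± 15.8% in the combination (SD, n = 2 each).

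The combination exceeded Vehicle by 58.1 points in the Frzb interior, with an edgeR adjusted p of 0.901. It exceeded AZA by 64.4 points, with an edgeR adjusted p of 0.927 (unadjusted 0.0307). With AG120 against without it, the means were 63.8 ± 19.6% and 17.4 ± 6.62% (SD, n = 4 each). The edgeR adjusted p of that contrast was 0.875 (unadjusted 0.0269). None of these passed the threshold in the quasi-likelihood test. DESeq2 called all 3, with adjusted p-values of 0.0393, 0.0148 and 0.0132. In the same 3 comparisons it called 1698, 1691 and 1717 of all 34580 units.

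The libraries read different stretches of the Frzb interior, where a stretch is a run of positions with gaps of at most 100 bp. A distal stretch, chr2:80413224-80413379, was at 90.9% in Vehicle 1, 99.9% in AG120 1, 72.7% in AZA 1, and 90.5 and 100% in the combination, and it was not read in Vehicle 2, AG120 2 and AZA 2. It supplied 69.9 and 88.3% of the interior's reads in the combination, 40.7% in AG120 1, 8.17% in AZA 1 and 2.98% in Vehicle 1. The high interior level of the combination thus came with a large share of reads from a stretch that was highly methylated wherever it was read.

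The stretch beside the Frzb higher end, chr2:80446421-80446896, was read in all 8 libraries. Its levels were 11.8 and 27.0% in Vehicle, 14.6 and 44.0% in AG120, 6.80 and 12.9% with AZA, and 9.61 and 8.10% in the combination. Here the combination lay below Vehicle, with means of 8.85 ± 1.07% and 19.4 ± 10.8% (SD, n = 2 each). The combination minus Vehicle difference was −10.5 points in this stretch alone, the opposite direction to the whole interior. It was 7.57 points with each position of the interior counted once. With AG120 against without it, the difference was 4.45 points in this stretch, against 46.4 points over the whole interior.

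**Figure D4:**
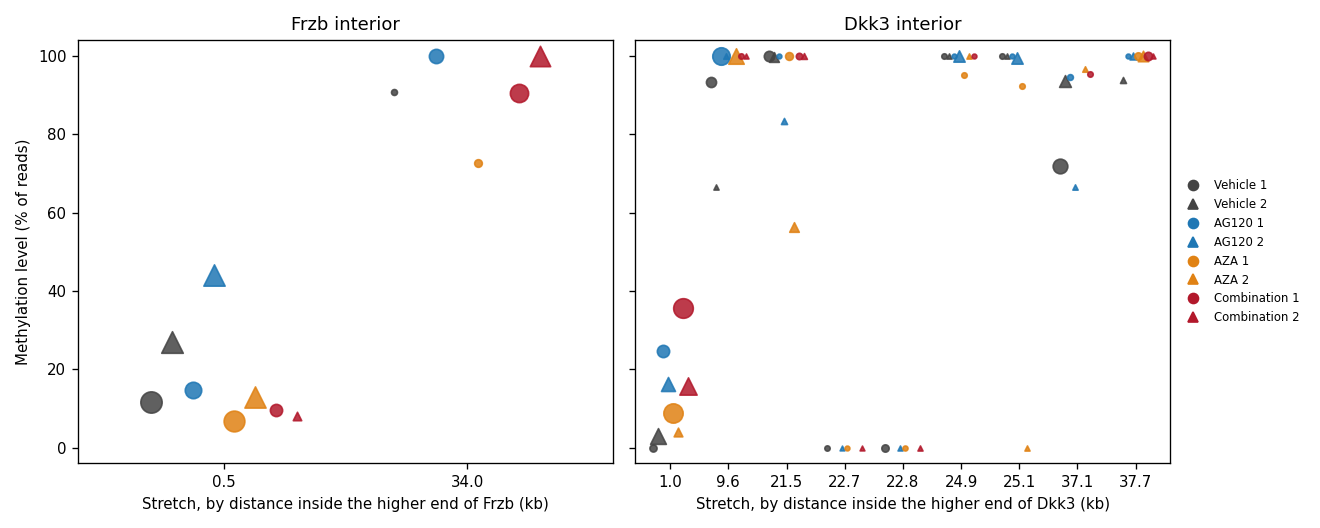
Methylation level (% of reads) of the stretches of the Frzb and Dkk3 interiors read in at least 4 libraries, ordered by distance inside the higher end of the gene in kb; colours and markers are libraries, and marker area grows with the stretch's share of the interior's reads in that library. In both genes the plotted stretch nearest the higher end is lower than most distant stretches, and the share of reads differs between libraries.

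The Frzb higher end, chr2:80446897-80448396, holds the RefSeq start. The levels were 23.6 and 57.6% in Vehicle, 24.5 and 25.0% in AG120, 24.5 and 2.42% with AZA, and 24.2 and 28.9% in the combination. The highest value, Vehicle 2, rests on 33 reads, the fewest of any kept member unit in a library. The smallest edgeR p of this end was 0.267. Within the printed Frzb window, the levels were 28.7 and 50% (of 6 reads) in Vehicle, 25.0 and 25.1% in AG120, 5.91 and 0.0654% with AZA, and 25.4 and 0% (of 12 reads) in the combination. Both AZA libraries lay below both Vehicle and both AG120 libraries in the window, whereas over the whole unit AZA overlapped with both groups. Like that of Sfrp5, the Frzb window was described after its values were seen and has no test of its own. In combination 2, 94.7% of the reads of the unit came from the stretch chr2:80446897-80447102, outside the window, so unit levels that are alike do not come from the same CpGs.

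Sfrp4, also a frizzled-related protein, had no kept unit. Its lower end, chr13:19622175-19623674, had reads in 6 libraries, with 37.0% in Vehicle 1, 9.52 and 0% (upper limit 2.68%) in AG120, 40.9 and 26.5% with AZA and 0% of 16 reads in combination 2. The Vehicle 1 value rests on 2270 reads and the others on 16 to 112, so the groups were not compared.

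Wif1, which encodes a secreted protein that binds WNT through its WIF domain, was methylated in its interior and almost unmethylated at its start. The start lies in the lower end, chr10:121033004-121034503, with 101 positions. The levels were 2.22 and 2.08% in Vehicle, 0 (upper limit 0.426%) and 0.0390% in AG120, 0 and 0% (upper limits 0.0912 and 0.153%) with AZA, and 0.812 and 0.194% in the combination. Vehicle was higher than every treated library, and both AZA libraries had no methylated read among 3291 and 1966. The mean over the libraries was above that of 11.6% of the kept gene ends.

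At the Wif1 start, the means were 2.15 ± 0.0987% in Vehicle, 0.0195 ± 0.0276% in AG120, 0% with AZA and 0.503 ± 0.437% in the combination (SD, n = 2 each). The edgeR p was 0.0268 for AG120 against Vehicle and 0.00774 for AZA against Vehicle, both with an adjusted p of 1. For the combination against AZA it was 0.0309 (adjusted p = 0.927). The interaction of AG120 and AZA, which asks whether the effect of AG120 depends on AZA, had a p of 0.00605 (edgeR adjusted p = 1). AG120 minus Vehicle was −2.13 points, and the combination minus AZA was 0.503 points. The likelihood ratio test called AZA against Vehicle (adjusted p = 0.0248) and the interaction (adjusted p = 0.00896). DESeq2 called the same pair, with adjusted p-values of 0.0161 and 0.00497. Of all 34580 units, the likelihood ratio test called 212 for AZA against Vehicle and 341 for the interaction, and DESeq2 called 451 and 899.

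The methylated reads of Wif1 lay partly away from the start. In the stretch chr10:121033671-121034100, which contains the printed window, the levels were 1.07 and 1.65% in Vehicle and 0.0424% in AG120 2. The other 5 libraries had no methylated read there. In the stretch just inside the gene, chr10:121034251-121034500, Vehicle 1 was at 3.86%, Vehicle 2 at 20% of 45 reads, and the combination at 4.81 and 0.952%. AZA 2 was at 0% of 214 reads in that stretch, and AZA 1 had no read there. The combination minus AZA difference was 0 in the start stretch, and the methylated reads of the combination lay in the stretch inside the gene, which only 1 of the AZA libraries read.

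The Wif1 interior, chr10:121034504-121100142, was at 99.5 and 94.7% in Vehicle, 98.7 and 93.4% in AG120, 99.6 and 83.7% with AZA, and 98.9 and 94.0% in the combination. AZA 2 was the lowest, and all tested pairs of groups overlapped. The mean of 95.3% was above that of 94.5% of the kept interiors. One stretch, chr10:121072450-121072505, was read at all of its 6 positions in every library and stood at 99.4 to 100%. At chr10:121083825-121084153, AZA 2 was at 65.5% and AZA 1 at 100%.

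**Figure D5:**
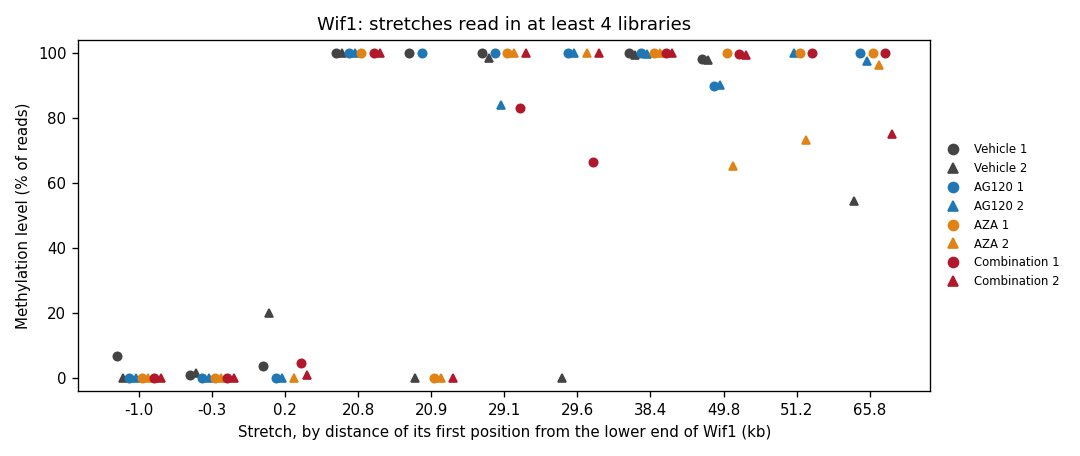
Methylation level (% of reads) of the Wif1 stretches read in at least 4 libraries, in order of the distance of the first position from the lower end of the gene in kb (negative outside the gene); colours and markers are libraries. The stretches around the start are near 0 in nearly all libraries, and most of those inside the gene are near 100%.

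Dkk2, an LRP5 and LRP6 ligand, had little methylation in its lower end, chr3:132084266-132085765. This end holds the RefSeq start, but no CpG of the 300-base start window was read, and the levels come from the stretches chr3:132084354-132084450 and chr3:132085435-132085763 on either side of it. The levels were 0.960 and 0.932% in Vehicle, 0.224 and 1.67% in AG120, 0.0495 and 0% (upper limit 0.462%) with AZA, and 0.116 and 8.55% in the combination. AZA lay below Vehicle without overlap. It also lay below the combination, but the upper limit of AZA 2 exceeds the level of combination 1. Combination 2 was the highest of the 8. The means were 0.946 ± 0.0194% in Vehicle and 0.0248 ± 0.0350% in AZA (SD, n = 2 each), with an edgeR adjusted p of 1.

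Dkk3, a Dickkopf protein that differs from the others in its action on WNT signals, had a kept interior only, chr7:112116519-112158982. The levels were 71.2 and 48.2% in Vehicle, 78.0 and 65.4% in AG120, 26.7 and 80.5% with AZA, and 47.4 and 36.7% in the combination. AZA held both the lowest and the highest of the 8 values. The combination lay below Vehicle and below AG120. Its mean was 42.0 ± 7.62% against 59.7 ± 16.2% in Vehicle (SD, n = 2 each; edgeR adjusted p = 1). With each position counted once, the direction reversed. The combination minus Vehicle difference was then 29.2 points in place of −17.6, and the combination minus AG120 difference 14.9 points in place of −29.6.

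In the Dkk3 stretch nearest its higher end among those read in all 8 libraries, chr7:112157971-112158510, the order differed from the whole interior. It was at 0 and 3.09% in Vehicle, 24.7 and 16.4% in AG120, 8.94 and 4.11% with AZA, and 35.6 and 15.7% in the combination. The 4 libraries with AG120 were above the 4 without, and the combination exceeded Vehicle by 24.1 points, against −17.6 points over the whole interior. This stretch supplied 6.46 to 81.5% of the interior's reads, depending on the library. Nearer the higher end, chr7:112158611-112158754 had reads in 3 libraries and chr7:112158884-112158973 in 2. In combination 2 they were at 25.8 and 100%, with 13.4 and 19.9% of the interior's reads. Vehicle 1 was at 54.5% of 11 reads and 33.3% of 12, and AZA 1 at 0% of 10 in the first. The Frzb and Dkk3 stretches were chosen for description after their values were seen and have no test of their own.

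Dkk1, the founding LRP5 and LRP6 inhibitor of the family, missed the read minimum in 1 library of its interior and 2 of its start. In the interior, chr19:30546376-30548996, the fewest reads were 7, in Vehicle 1. The levels were 28.6 and 14.3% in Vehicle, 2.04 and 57.1% in AG120, 10.6 and 0% (upper limit 0.393%) with AZA, and 39.6 and 43.0% in the combination. The Vehicle 1 value rests on those 7 reads, so the groups were not compared. The higher end, which holds the start, was at 0 to 20% in the 7 libraries that read it.

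Dkk4, another LRP5 and LRP6 ligand, was read at its higher end in 4 libraries only. The levels were 100% in Vehicle 1, 100% in AZA 1, and 91.3 and 100% in the combination. The higher end of Dkk3 had reads in all 8 libraries but only 4 in Vehicle 1 and 18 in AG120 1. The values of the other 6 ran from 44.1 to 83.3%. Every left-out unit whose levels are not given here had reads in at most 7 libraries or in none.

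The other WNT pathway genes were summarised as 4 lists of 78 genes, of which 73 had a kept unit, giving 142 units. At the adjusted threshold no unit of any list was called in any comparison by the quasi-likelihood test. In the combination against Vehicle, an unadjusted p under 0.05 was reached by 2 of 33 units of WNT ligands, 2 of 28 of receptors, 2 of 36 of other inhibitors and agonists, and 2 of 45 of intracellular and nuclear components. For the members it was 0 of 11, and over all units 5.53%. The median difference was −0.68 points in the members, 1.48 in ligands, 2.99 in receptors, 0.0232 in other inhibitors and agonists and 3.15 in the intracellular list, against 0.0881 over all units.

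By rule, 2 units per list were named, those with the lowest p in that comparison. Among ligands these were the ends of Wnt3 (4.97 ± 2.08% in Vehicle, 0.0189 ± 0.0268% in the combination) and Wnt7a (9.73 ± 5.39% and 0.204 ± 0.289%). Among receptors they were the ends of the DKK targets Lrp6 (1.93 ± 0.0486% and 0.00616 ± 0.00872%) and Lrp5 (0.415 ± 0.491% and 6.33 ± 6.18%). The other inhibitors and agonists gave the ends of Kremen1, a receptor for DKK proteins (2.89 ± 0.964% and 0.0176 ± 0.0249%), and of Rspo3, a WNT agonist (5.76 ± 1.59% and 0.0487 ± 0.0689%). In the intracellular list they were the interiors of Axin1, a scaffold of the beta-catenin destruction complex (4.89 ± 3.20% and 61.5 ± 12.9%), and Lef1, a nuclear partner of beta-catenin (33.7 ± 8.40% and 58.7 ± 3.92%). All are SD with n = 2, and their edgeR adjusted p-values were 0.817 to 0.887. The members' own smallest were the Frzb interior and the Wif1 lower end, given above. For the named units of the other lists, it was not examined whether the libraries read the same CpGs.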

How the data were processed

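Per the file headers, the authors deposited raw counts of methylated and unmethylated reads per CpG cytosine and library, with no normalization. The submitters' processing notes name mm10, Bismark 0.22.3, bcl2fastq 2.17.1.14, edgeR 3.32, R 4.0.2, SAMtools 1.4.1 and Trim Galore 0.4.4, without roles. Not given in the sources used here: deduplication and conversion rates. All value columns matched a library (0 were unused).

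Counts were summed per gene unit (RefSeq GRCm38.p6 gene coordinates, which carry no strand; starts from the RefSeq promoter table) and fitted with edgeR 4.0.16 under R 4.3.3, all 8 libraries together, with 1 term for each library and a methylation term for each group. The robust quasi-likelihood F-test was two-sided, adjusted over 34580 units. The script was tested on simulated data. Alternatives were other read minimums, at least 3 positions, other windows, the likelihood ratio test, limma 3.58.1 (pseudocounts of 2 and 0.5), DESeq2 1.42.0, a replicate block and leaving out each library.

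Every kept member unit was named, and of each other list the 2 units with the lowest p for the combination against Vehicle. Members and lists were chosen with earlier results of these data known.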

Additional observations from a re-analysis of the deposited data

How the results depend on the processing

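The number of units called depended on the test. The likelihood ratio test and DESeq2 called 317 and 830 units for AG120 against Vehicle, 212 and 451 for AZA against Vehicle, 651 and 1698 for the combination against Vehicle, 709 and 1691 against AZA, and 679 and 1414 against AG120. They called 341 and 899 for the interaction, 658 and 1717 for AG120 on average, and 422 and 1070 for AZA on average, where the quasi-likelihood test called 0 each. Leaving out a library gave 0 to 4 units for AG120 on average, the 4 without AG120 replicate 1 and none of them a member, and 0 in every other comparison. The cause was not tested. The other read minimums, windows, limma and the minimum of 3 positions called 0.

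Same-numbered libraries did not deviate together (correlations −0.00893 to 0.0148), and the fit with a replicate block called 0. Because libraries often read different CpGs, these correlations cannot decide whether the numbers pair the libraries, and the labels do not say. Of 77 member differences, counting each position once changed the sign of 23 and the best-covered stretch alone that of 14, both chosen after seeing the data. Gene ends reaching 1000 bp inside changed 9 of 70, and leaving out a library 60 of 396. What depth limits was not tested beyond the read minimums.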
